A study of Drosophila melanogaster with 8 samples.

Results

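Posterior midgut enterocytes of both crosses with a UAS-Svb transgene were compared, through the mean of these crosses, with enterocytes from the driver crossed to Canton-S flies. Expression was measured by RNA sequencing of total RNA in 8 libraries from adult female Drosophila melanogaster, which are all the libraries used here. All females carried MyoIA-Gal4 with UAS-GFP over a plain chromosome, and tubGal80TS. Opposite tubGal80TS, the SvbAct females (n = 3) had UAS-SvbACT::GFP, the RNAiSvb females (n = 3) had UAS-SvbRNAi, and the Ctrl females (n = 2), progeny of the driver and Canton-S, had no transgene. Every group thus carried the driver, a GFP reporter and the temperature-sensitive Gal80 repressor. Virgin females spent 3 days at room temperature and 6 days at 29 °C, and were 9 days old. Each library came from a pool of females whose guts were cut and digested, and patches of enterocytes held back by a strainer were collected. The growth protocol names another cross, which was not analysed here.

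The 6 UAS libraries were averaged with equal weight for SvbAct and RNAiSvb and set against Ctrl, to ask which genes stood apart in the Canton-S cross while differing little between the UAS crosses. A gene was counted as separating the UAS crosses from Ctrl if it met 3 conditions. Its adjusted p for the averaged contrast was under 0.05 in edgeR's quasi-likelihood test, its CPM (count scaled to the library total times the TMM factor, which corrects for composition) in the 2 Ctrl libraries lay outside the range of the 6 UAS libraries, and its SvbAct minus RNAiSvb difference was under 1 on the log2 scale. Of 8775 genes tested, 101 met all 3, which were 25 higher and 76 lower in the UAS crosses. Where a separating gene is said below to show no overlap, this follows from the rule and is not further evidence.

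Gal4 drives any UAS transgene in the same cells, and Gal80TS holds Gal4 off at low temperature. Svb (Shavenbaby) is a zinc-finger transcription factor encoded by the ovo locus. It is made as a repressor and is turned into an activator by partial processing of the protein, and the SvbACT form is active without that step. Canton-S is a wild-type laboratory strain, while transgenic lines are kept in stocks of other origin, so the Canton-S progeny differ from the UAS progeny in the genome of one parent as well as in the transgene. A gene that moves alike in both UAS crosses can owe this to the strain, to carrying a further UAS insertion or to Svb itself, and in these 3 groups these cannot be told apart. Enterocytes absorb nutrients and secrete digestive enzymes into the gut lumen. The labelled genotype places the transgenes in enterocytes, whereas the strain label speaks of activation in ISCs (intestinal stem cells).

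Library totals ran from 15450011 to 23748649 counts in the UAS crosses and were 19403305 and 17628597 in Ctrl. The targeted gene ovo had 868, 1189 and 762 counts in SvbAct, 40, 26 and 61 in the libraries labelled RNAiSvb, and 9 and 2 in Ctrl. No knockdown of ovo was seen in the libraries labelled RNAiSvb, and reads of transgene and endogenous gene were not separated. Its exons overlap lncRNA:CR44833. The averaged contrast for ovo, a log2 fold change of 5.07 (SE 0.65, adjusted p 0.00178 in edgeR), rested on SvbAct, where it was 7.52. The eye colour gene w (white), which marks many transgene insertions, did not pass the threshold, with a log2 fold change of -0.40 (SE 0.30, adjusted p 0.617 in edgeR).

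The summed level of 12 enterocyte markers in the table (of 13 listed) was between 14246.5 and 18707.5 CPM in the UAS libraries, and 14628.6 and 15996.5 CPM in Ctrl. The 5 progenitor markers in the table (of 8 listed) summed to 242, 288 and 199 CPM in SvbAct, to 109, 101 and 113 CPM in RNAiSvb, and to 109 and 122 CPM in Ctrl. The 11 visceral muscle markers ranged from 273 to 1642 CPM in the UAS libraries and were at 699 and 384 CPM in Ctrl. No muscle, enteroendocrine, tracheal, fat body, haemocyte, ovary or copper cell marker that could be tested was called by edgeR or DESeq2. An unadjusted p under 0.05 was found for 4 of them, 1 each of 11 enteroendocrine, 3 tracheal, 2 fat body and 2 haemocyte markers. It was found for 0 of 11 muscle, 1 ovary and 3 copper cell markers, and for 1201 of all 8775 genes tested. Of 5 progenitor markers tested, 3 had such a p, 1 was called by edgeR and 2 by DESeq2. The groups overlapped in enterocyte and muscle markers, and in progenitor markers SvbAct alone lay above Ctrl. The Malpighian tubule gene salt, the 1 of 4 tubule markers in the table, was at most 0.114 CPM in the UAS libraries, at 0 in Ctrl replicate 1 and at 5.20 CPM in Ctrl replicate 2. No hindgut marker was in the table, and 2 fat body markers summed to at most 6.79 CPM in any library. In such bulk samples fewer cells of a type and less RNA per cell cannot be told apart.

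By edgeR's quasi-likelihood test, 171 of 8775 genes (1.95%) were called in the averaged contrast, that is, had an adjusted p under 0.05. Of these, 48 (0.547%) were higher and 123 (1.4%) lower in the UAS crosses, and 1201 genes had an unadjusted p under 0.05. Over all genes tested the median log2 fold change was 0.01, and the median size of the change among the called genes was 1.44. With library totals alone, without TMM factors, 147 genes were called, 61 higher and 86 lower, so that the share of higher calls was 41.5% against 28.1%, and the median over all genes was 0.11. The share of higher calls was 48.9% in the DESeq2 Wald test and 44.2% in edgeR's likelihood ratio test. The excess of falls thus depended on the test as well as on the scaling. CPM values did not overlap between the UAS crosses and Ctrl in 150 of the called genes, against 1197 of all genes tested (13.6%). Tested singly against Ctrl, SvbAct gave 302 calls (3.44%) and RNAiSvb 119 (1.36%), with the Ctrl libraries shared. Of the 171 genes, 49 were also called in both single contrasts, 78 in SvbAct alone, 34 in RNAiSvb alone and 10 in neither. Among the 150 genes without overlap, 49 had a fitted difference of at least 1 between SvbAct and RNAiSvb. Some of these differences rest on 1 count in 1 library, as in lectin-24A. The other 101 (1.15% of genes tested) are the separating genes.

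The separating genes had a median log2 fold change of 1.34 in the 25 that rose (0.285% of genes tested) and of -1.22 in the 76 that fell (0.866%). A change of at least 1 on the log2 scale was seen in 73 of them. The limit of 1 on the difference between the UAS crosses is a limit of size and does not show that SvbAct and RNAiSvb act alike. In 60 of the 101 the 95% interval of that difference lay wholly within -1 to 1, and 9 had a difference that itself passed the threshold in edgeR's test. Just inside the limit were CG31436, with a difference of -0.97, and CG33090, with 0.95, and just outside were Cirl with 1.03 and Ugt37A3 with -1.03.

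The counts depended on the Ctrl libraries. Leaving one out gives Ctrl a lone library, which is then assumed to vary like the other groups. Without Ctrl replicate 1 the edgeR test called 43 genes and 25 of the separating kind, and without Ctrl replicate 2 it called 19 and 10. With the 6 UAS libraries taken as 1 group, so that the difference between SvbAct and RNAiSvb enters the spread, 30 genes were called and 25 were of the separating kind. In every one of the 8 fits that leave out a library, 8 of the 101 genes were called. These were Ugt49B1, which rose, and CG14406, Syt4, CG11893, Alp10, Alp9, Jon25Bii and Jon44E, which fell.

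**Figure D1:**
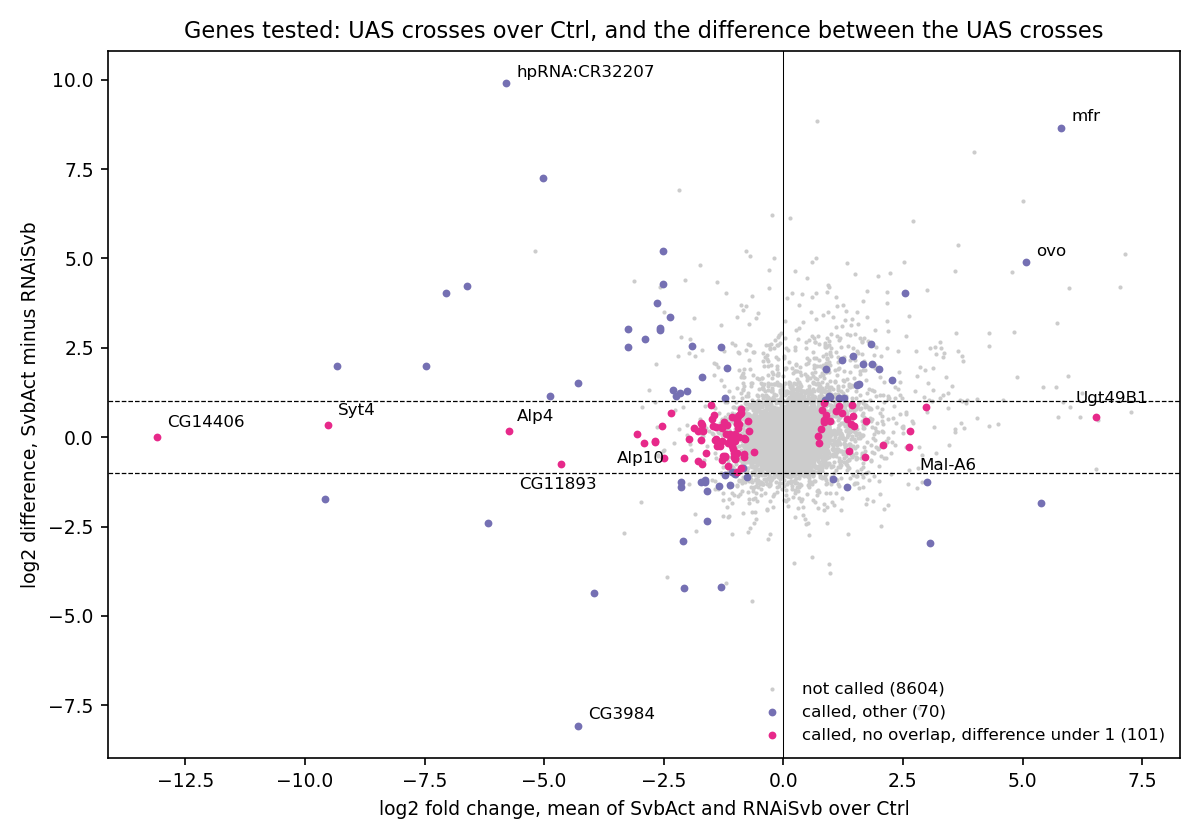
Each point is 1 of 8775 genes tested. The horizontal axis is the log2 fold change of the mean of SvbAct and RNAiSvb over Ctrl, the vertical axis the log2 difference SvbAct minus RNAiSvb, and the dashed lines mark a difference of 1 in either direction. The 101 separating genes (pink) lie between the dashed lines on both sides of 0, while ovo and hpRNA:CR32207 lie far above them. Fitted values of genes with a group at 0 counts, such as CG14406, depend on the prior count.

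The strongest differences were genes read in Ctrl and nearly or wholly absent from all 6 UAS libraries. CG14406, which BDGP6.54 places on chromosome X between 14909873 and 14910845 (minus strand), had 0 counts in each SvbAct and RNAiSvb library, against 919 and 1093 counts in Ctrl. Its level was at least 2210-fold lower in the UAS crosses, taking a floor of 3 counts over the 6 libraries (edgeR adjusted p 4.82e-05). The groups thus shared no value, and a count of 0 was found with both transgenes.

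Syt4, which encodes a synaptotagmin, a calcium-sensor protein of vesicle membranes, had 0, 0 and 2 counts in SvbAct, 0, 1 and 1 in RNAiSvb, and 511 and 557 in Ctrl. The Ctrl level was 880 times that of the UAS crosses, with a 95% counting interval of 343 to 3234 (edgeR adjusted p 3.53e-06). It lies on chromosome 3R from 7266065 to 7270809. Its neighbour Gld, the gene for glucose dehydrogenase, had 1, 0 and 0 counts in SvbAct, 0 in each RNAiSvb library, and 59 and 25 in Ctrl (edgeR adjusted p 0.0107). Gld was read less deeply than Syt4 in Ctrl, and in both genes no UAS library exceeded 2 counts.

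A search over all genes tested for at most 3 counts in every library of one side and at least 8 in every library of the other, a rule chosen after values were seen, found 10 genes. Of these, 5 were low in the UAS crosses. Besides CG14406, Syt4 and Gld they were lectin-24A and Cyp6a18. Gld, lectin-24A and Cyp6a18 are not counted as separating genes. Their fitted SvbAct minus RNAiSvb differences were 2.00, 2.00 and -1.72, values that rest on 1 count in 1 library and on the prior count. The C-type lectin gene lectin-24A, whose exons overlap CG2818 by 11 bases, had 1, 0 and 0 counts in SvbAct, 0 in each RNAiSvb library, and 201 and 104 in Ctrl (edgeR adjusted p 0.000828). Cyp6a18, of the cytochrome P450 family, had 0 in each SvbAct library, 0, 0 and 1 in RNAiSvb, and 19 and 288 in Ctrl (edgeR adjusted p 0.00751). Its Ctrl libraries differed widely, and without Ctrl replicate 2 it did not pass the threshold (edgeR adjusted p 0.269).

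The other 5 were low in Ctrl, and none of them passed the threshold in the averaged contrast. Chd3, which encodes a chromatin remodelling helicase, had 19, 17 and 29 counts in SvbAct, 14, 8 and 29 in RNAiSvb, and 0 in both Ctrl libraries, at least 11.7-fold higher in the UAS crosses (edgeR adjusted p 0.057). Rh4, a rhodopsin gene, had 24, 14 and 30 counts in SvbAct, 15, 12 and 13 in RNAiSvb, and 3 and 1 in Ctrl (edgeR adjusted p 0.148). Mcm10, CG8100 and CG13690 followed with edgeR adjusted p values of 0.111, 0.13 and 0.171, and exons of Mcm10 and CG13690 overlap Ret and ebi. All 5 were read at low depth, with at most 53 counts in any library.

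Alkaline phosphatase genes, whose enzymes split phosphate groups from substrates at the gut surface and elsewhere, held 3 members that fell in the UAS crosses, among 6 tested, and 0 that rose, with a list median log2 fold change of -2.65 against 0.01 for all genes tested, and all 3 were separating genes. The summed share of the 8 members in the table fell less than that median, at 0.0748%, 0.111% and 0.111% of the counts in SvbAct, 0.0969%, 0.130% and 0.150% in RNAiSvb, and 0.245% and 0.225% in Ctrl. At an unadjusted p under 0.05, as in DESeq2, 0 rose, and with library totals 3 again fell (median -2.55). For this list and each list below, the share over all genes tested was 0.547% called higher and 1.4% called lower. Alp10, on chromosome 3L from 5592741 to 5595272, had 46.9, 107 and 65.8 CPM in SvbAct, 75.1, 63.8 and 67.2 CPM in RNAiSvb, and 556 and 621 CPM in Ctrl. All 6 UAS libraries lay far below both Ctrl libraries, with a log2 fold change of -3.05 (SE 0.25, adjusted p 0.000103 in edgeR). The SvbAct minus RNAiSvb difference of Alp10 was 0.09, with a 95% interval of -0.47 to 0.66.

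Alp9, its neighbour on the other strand, had 52.2, 91.2 and 59.4 CPM in SvbAct, 93.5, 86.8 and 40.6 CPM in RNAiSvb, and 455 CPM in both Ctrl libraries. It fell by 2.69 on the log2 scale (SE 0.30, adjusted p 0.000877 in edgeR), without overlap between the groups. On the other side of Alp10, spo, which encodes a P450 of ecdysteroid synthesis, had 1.49, 1.74 and 2.74 CPM in SvbAct, 1.32, 1.41 and 3.72 CPM in RNAiSvb, and 8.82 and 17.8 CPM in Ctrl, and fell by 2.68 (SE 0.47, adjusted p 0.0114 in edgeR). Exons of spo overlap l(3)psg2, and the values of family members with similar copies are uncertain, since reads can be split between them.

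Alp4 had 0.496, 0.0696 and 0.285 CPM in SvbAct, 0.136, 0.171 and 0.483 CPM in RNAiSvb, and 0.749 and 29.4 CPM in Ctrl. Its log2 fold change of -5.74 (SE 1.02, adjusted p 0.0121 in edgeR) rested on Ctrl replicate 2, and without that library it was -1.43 (edgeR adjusted p 0.811). That is also the library with salt reads, and the part of tubule cells in the Alp4 and Cyp6a18 values was not tested. Exons of Alp4 overlap mir-4948. The 3 members that did not pass the threshold were Alp13, Alp5 and Alp6, with fitted log2 fold changes of -2.62, -0.56 and -0.54.

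Jonah genes, which encode serine proteases secreted into the gut lumen, were tested in 16 members. Of these, 8 fell and 0 rose, 7 of the 8 were separating genes, and the list median was -1.29. The 16 genes together took 2.20%, 2.37% and 2.46% of the counts in SvbAct, 2.58%, 3.17% and 2.42% in RNAiSvb, and 5.19% and 4.02% in Ctrl. Every UAS library was below both Ctrl libraries. With library totals in place of TMM 8 members again fell and 0 rose (median -1.20). At an unadjusted p under 0.05, and in DESeq2, 0 members were higher. The family holds near-identical copies, so that single members are uncertain.

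The most abundant of the separating Jonah genes, Jon25Biii, had 3976, 4798 and 5656 CPM in SvbAct, 4374, 6306 and 4467 CPM in RNAiSvb, and 15277 and 11171 CPM in Ctrl. It fell by 1.42 on the log2 scale (SE 0.23, adjusted p 0.00899 in edgeR). Its neighbour Jon25Bii had 14.7, 20.3 and 15.0 CPM in SvbAct, 25.6, 19.4 and 29.3 CPM in RNAiSvb, and 103 and 126 CPM in Ctrl, and fell by 2.49 (SE 0.20, adjusted p 8.81e-05 in edgeR). In both genes the 6 UAS libraries lay below the Ctrl libraries without overlap, as the rule for separating genes requires.

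Jon44E, whose exons overlap CG8586, had 66.6, 111 and 148 CPM in SvbAct, 169, 188 and 127 CPM in RNAiSvb, and 548 and 567 CPM in Ctrl, a log2 fold change of -2.07 (SE 0.26, adjusted p 0.00178 in edgeR). The other separating members were Jon99Fi, Jon99Ciii, Jon65Ai and Jon99Fii, with log2 fold changes of -1.78, -1.72, -1.71 and -0.96. Jon99Ci was called too (-1.59) but differed between the UAS crosses, at 45.4, 39.9 and 57.7 CPM in SvbAct, 144, 403 and 186 CPM in RNAiSvb, and 335 and 316 CPM in Ctrl. Its RNAiSvb range held both Ctrl values. Jon25Bi, with a fitted log2 fold change of -2.58, did not pass (edgeR adjusted p 0.0913), and 3 of the 16 members had a positive fitted value of at most 0.25.

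Trypsin genes, the other family of serine proteases examined, did not move together. Of 13 tested, 1 rose and 1 fell, with a list median of -0.10, and with library totals 1 rose and 0 fell. The gene that fell, lambdaTry, is a separating gene with a log2 fold change of -0.82 (SE 0.18, adjusted p 0.0418 in edgeR). Try29F rose by 3.01 (SE 0.46, adjusted p 0.0267 in edgeR) but differed by -1.27 between SvbAct and RNAiSvb, and its exons overlap CG18661.

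Maltases and amylases split starch and disaccharides. Of 12 tested, 2 rose and 0 fell, with a list median of 0.75. Neither an unadjusted p under 0.05 nor DESeq2 gave a fall (0 genes each), and with library totals 3 rose (median 0.85). Mal-A6 had 296, 277 and 228 CPM in SvbAct, 233, 603 and 143 CPM in RNAiSvb, and 58.9 and 36.5 CPM in Ctrl. All UAS libraries lay above both Ctrl libraries, and Mal-A6 rose by 2.63 on the log2 scale (SE 0.43, adjusted p 0.0296 in edgeR). It did not pass the threshold without Ctrl replicate 1 (edgeR adjusted p 0.193) or without Ctrl replicate 2 (0.325). Mal-A3 had 228, 250 and 343 CPM in SvbAct, 477, 756 and 906 CPM in RNAiSvb, and 173 and 177 CPM in Ctrl. It rose in the averaged contrast by 1.33 (SE 0.24, adjusted p 0.0304 in edgeR), and RNAiSvb lay above SvbAct in every library. Both belong to a cluster of similar genes and are uncertain.

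**Figure D2:**
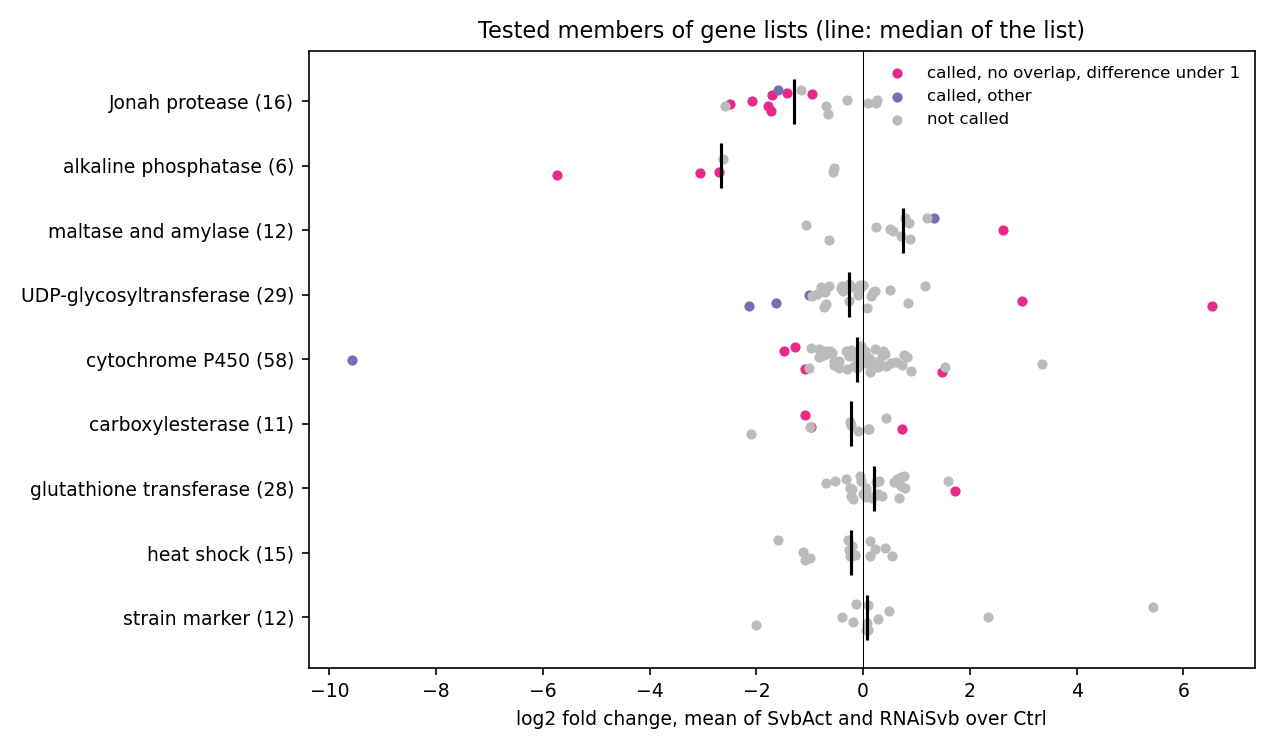
Each point is a tested member of a gene list, placed by the log2 fold change of the mean of SvbAct and RNAiSvb over Ctrl; the number tested stands in brackets, the short line is the list's median and vertical scatter within a row has no meaning. Alkaline phosphatase and Jonah genes lie mostly left of 0, maltases mostly right of it, and the other lists on both sides.

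The largest rise among separating genes was that of Ugt49B1, a UDP-glycosyltransferase gene, whose family adds sugars to small lipophilic compounds. On chromosome 2R from 21212880 to 21214972, it had 130, 158 and 173 CPM in SvbAct, 102, 119 and 91.8 CPM in RNAiSvb, and 1.44 and 1.27 CPM in Ctrl. The lowest UAS library was far above both Ctrl libraries. The log2 fold change was 6.53 (SE 0.21, adjusted p 7.25e-07 in edgeR), and SvbAct exceeded RNAiSvb by 0.56, with a 95% interval of 0.21 to 0.91. Its exons overlap CG44245 by 90 bases. The adjacent family member Ugt49C1 had 4.69, 5.92 and 5.59 CPM in SvbAct, 2.68, 4.06 and 2.18 CPM in RNAiSvb, and 0.802 and 0.181 CPM in Ctrl, and rose by 2.99 (SE 0.55, adjusted p 0.0331 in edgeR).

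The family as a whole did not follow. Of 29 UDP-glycosyltransferase genes tested, 2 rose and 3 fell, with a list median of -0.26, and with library totals 3 rose and 2 fell. The 3 that fell, Ugt35C1, Ugt35E1 and Ugt37A3, each differed by more than 1 between the UAS crosses, with SvbAct lower than RNAiSvb. Ugt35C1 had 32.1, 24.6 and 29.9 CPM in SvbAct, 72.0, 104 and 51.8 CPM in RNAiSvb, and 231 and 181 CPM in Ctrl.

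Cytochrome P450 genes, whose enzymes oxidise hormones and foreign compounds, had 1 member higher and 5 lower among 58 tested genes with a Cyp symbol. P450 genes with other symbols, such as spo above, are not in this list. Over all genes tested, 0.547% were called higher and 1.4% lower. The list median was -0.11, and with library totals 2 rose and 3 fell. Cyp6a14 had 133, 97.2 and 86.7 CPM in SvbAct, 71.6, 81.3 and 102 CPM in RNAiSvb, and 36.6 and 31.8 CPM in Ctrl, and rose by 1.47 (SE 0.20, adjusted p 0.00755 in edgeR). Cyp4e2 fell by 1.49 (SE 0.26, adjusted p 0.0123 in edgeR), and Cyp4d8, Cyp4p2 and Cyp9f3 fell by 1.28, 1.09 and 0.72. Among 28 glutathione transferase genes, which conjugate glutathione to toxic compounds, GstE5 alone passed the threshold. It had 32.9, 40.2 and 44.7 CPM in SvbAct, 19.4, 36.3 and 30.3 CPM in RNAiSvb, and 6.79 and 13.5 CPM in Ctrl, and rose by 1.73 (SE 0.30, adjusted p 0.0275 in edgeR).

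Of 11 carboxylesterase genes tested, 1 rose and 2 fell, and with library totals 1 rose and 1 fell. The 3 are members of the alpha-esterase cluster on chromosome 3R. There alpha-Est5 rose by 0.72 (SE 0.13), while alpha-Est4 fell by 0.97 (SE 0.21) and alpha-Est1 by 1.08 (SE 0.18), with edgeR adjusted p values of 0.0278, 0.0375 and 0.0109. Neighbouring genes of the cluster thus changed in opposite directions, and alpha-Est4 overlaps asRNA:CR46128.

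In 8 other lists 0 genes passed the threshold in edgeR's test. Beside each is the number with an unadjusted p under 0.05 and the number called by the DESeq2 Wald test. Over all 8775 genes tested, 1201 had an unadjusted p under 0.05 in edgeR's test. The DESeq2 count over all genes is given in the last section. They were 1 and 1 of 7 mucin and peritrophin genes, 1 and 0 of 8 PGRP genes of bacterial sensing, and 1 and 1 of 3 antimicrobial peptide genes. They were 1 and 0 of 11 antiviral genes, 2 and 1 of 15 heat shock genes, and 2 and 1 of 6 metallothionein genes. For 24 small nucleolar or nuclear RNA genes they were 0 and 0, and for 12 genes that mark laboratory strains by eye, body or bristle traits 2 and 0. Among 6 synaptotagmin genes Syt4 and Syt7 fell, and the other 4 did not pass the threshold. Of 218 antisense RNA genes 3 were called, each with a negative averaged contrast (1.4% of all genes tested were), although the list median was 0.52. Of these, asRNA:CR45600 had 0.772, 0.975 and 0.912 CPM in SvbAct, 12.1, 22.3 and 13.8 CPM in RNAiSvb, and 8.72 and 9.97 CPM in Ctrl. It was thus below Ctrl in SvbAct and above it in RNAiSvb, where it did not pass the threshold (edgeR adjusted p 0.301). Because strand handling is not given in the sources used here, these are uncertain where they share exons with another gene, as all 3 do. Of 128 long noncoding RNA genes 1 fell, and of 3 hairpin RNA genes 2 fell, of which hpRNA:CR33940 overlapped with Ctrl in SvbAct.

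Among the remaining genes with the greatest falls, CG11893 had 1.16, 0.418 and 1.82 CPM in SvbAct, 0.954, 2.01 and 2.85 CPM in RNAiSvb, and 36.3 and 39.1 CPM in Ctrl. Its log2 fold change was -4.65 (SE 0.43, adjusted p 0.000246 in edgeR). The gene dpr10, of a family of cell-surface immunoglobulin proteins first known from taste neurons, fell by 2.92 (SE 0.35, adjusted p 0.00141 in edgeR). CG32751 fell by 2.54 (SE 0.47, adjusted p 0.0164 in edgeR), with 32.1 CPM in Ctrl replicate 1 and 81.5 CPM in Ctrl replicate 2. All 3 are separating genes, so that lack of overlap between the UAS crosses and Ctrl was a condition of their choice.

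Further separating genes that fell, named here after their values were seen, encode metabolic enzymes and transporters. Mipp1, an inositol polyphosphate phosphatase gene, had 121, 121 and 137 CPM in SvbAct, 143, 132 and 150 CPM in RNAiSvb, and 290 and 302 CPM in Ctrl, a log2 fold change of -1.15 (SE 0.13, adjusted p 0.0015 in edgeR). Its spread within each group was small beside the gap to Ctrl. Mpc1, of the mitochondrial pyruvate carrier, fell by 0.94, and Gk2, a glycerol kinase gene, by 0.83. The sodium pump beta subunit gene nrv3 fell by 1.70, the sodium/proton exchanger gene Nha1 by 1.04 and the zinc transporter gene ZnT77C by 1.17. The superoxide dismutase gene Sod3 fell by 0.88, with an SvbAct minus RNAiSvb difference of -0.87 that passed the threshold (edgeR adjusted p 0.03).

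A pair of the falls, named after their values were seen, concerns genes known for common variants in wild populations. CHKov1, known in flies for a Doc transposon insertion tied to virus resistance, had 132, 116 and 126 CPM in SvbAct, 121, 96.5 and 86.9 CPM in RNAiSvb, and 250 and 348 CPM in Ctrl. It fell by 1.41 (SE 0.18, adjusted p 0.00178 in edgeR), and in BDGP6.54 its exons overlap that Doc copy by 5 bases. The oxidoreductase gene fiz, known for cis-regulatory variation, had 311, 251 and 416 CPM in SvbAct, 233, 398 and 281 CPM in RNAiSvb, and 679 and 772 CPM in Ctrl, and fell by 1.20 (SE 0.24, adjusted p 0.0251 in edgeR). Which alleles these flies carried was not tested.

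**Figure D3:**
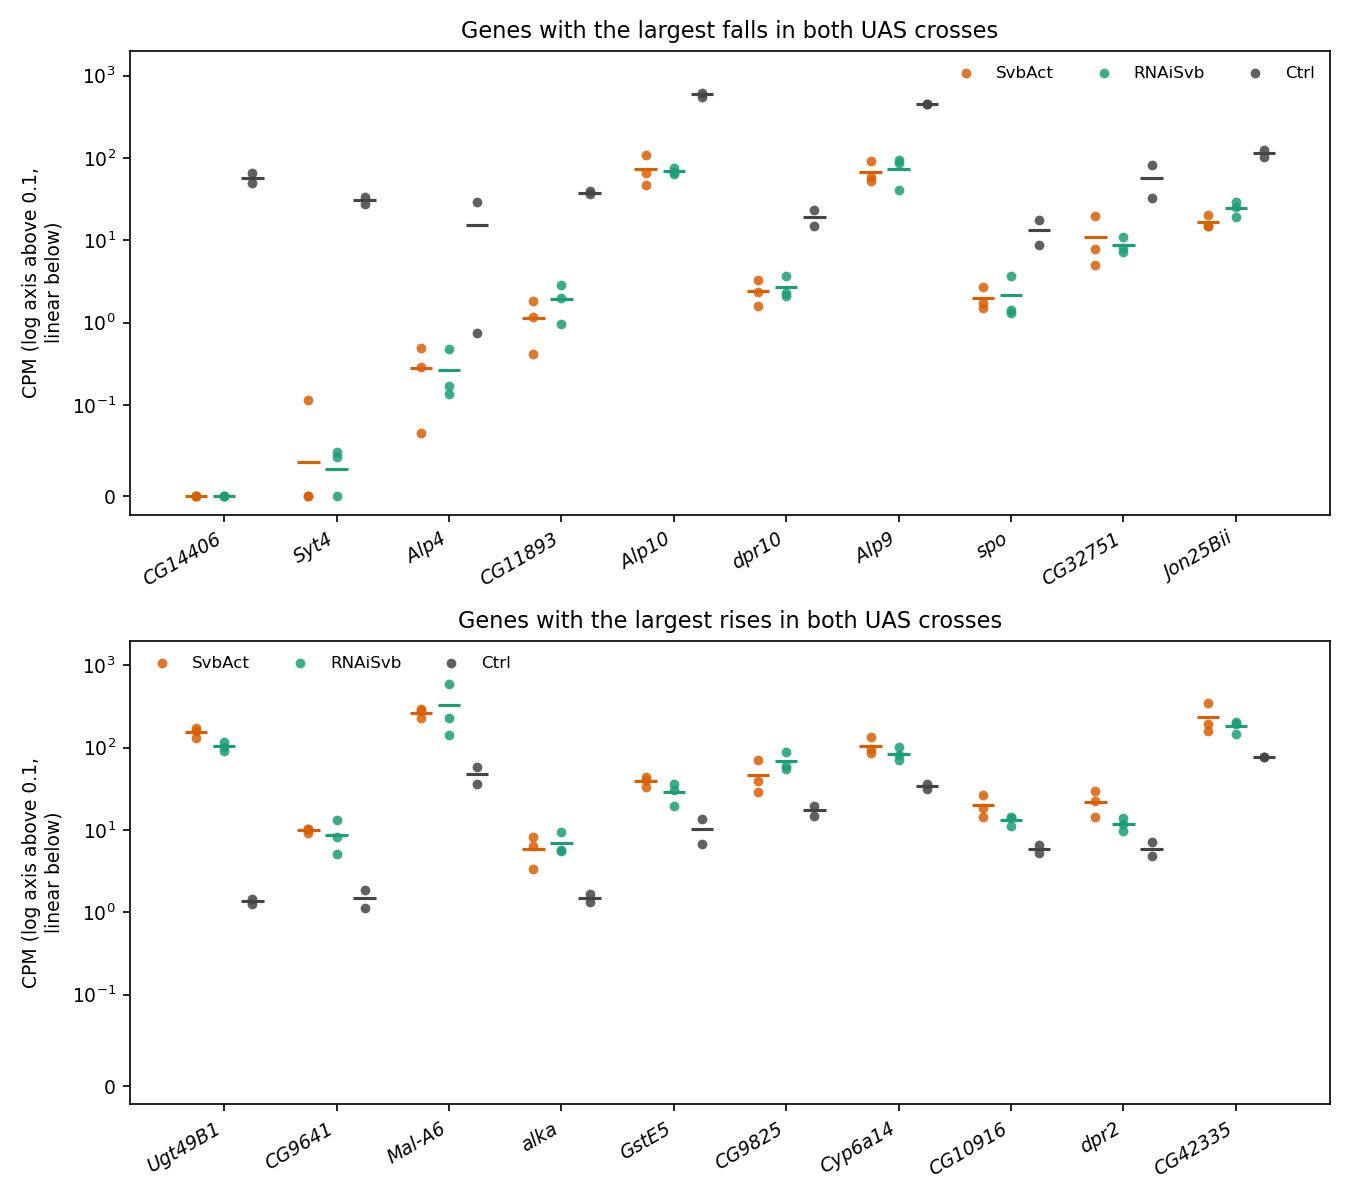
Each point is 1 library, in CPM on an axis that is logarithmic above 0.1 and linear below, for the 10 separating genes with the greatest fall (top) and the greatest rise (bottom) among those with an average log2 CPM of at least 2. Short lines are group means. By the rule for separating genes, the 3 SvbAct and 3 RNAiSvb libraries lie on one side of both Ctrl libraries in each gene. For Alp4 the lower Ctrl library lies close to the UAS libraries.

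The other separating genes with the largest rises were less steep than Ugt49B1. CG9641 had 10.3, 9.19 and 10.4 CPM in SvbAct, 8.13, 5.17 and 13.1 CPM in RNAiSvb, and 1.12 and 1.87 CPM in Ctrl, and rose by 2.65 (SE 0.39, adjusted p 0.0121 in edgeR). The gene alka, which encodes a chloride channel, rose by 2.08, CG9825 by 1.71, CG10916 by 1.46, dpr2 by 1.44 and CG42335 by 1.41, with edgeR adjusted p values of 0.0296 to 0.0485. Exons of alka and CG10916 overlap CG12325 and CG5726. Taking the 6 UAS libraries as 1 group, none of alka, CG9825, CG10916, dpr2 and CG42335 passed the threshold. With the replicate number as a block, alka and dpr2 did not pass. The rise of dpr2 was 1.89 in SvbAct and, at 1.00, did not pass in RNAiSvb (edgeR adjusted p 0.219).

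Of 12 enterocyte markers tested, 1 was called. The POU transcription factor gene nub, expressed in enterocytes, had 1021, 1436 and 1240 CPM in SvbAct, 861, 703 and 821 CPM in RNAiSvb, and 559 and 510 CPM in Ctrl. It rose by 0.89 (SE 0.17, adjusted p 0.0397 in edgeR), and all SvbAct libraries lay above all RNAiSvb libraries. Among further rises named after their values were seen, the ETS transcription factor gene Ets21C rose by 1.23 (SE 0.21, adjusted p 0.0237 in edgeR), and its exons overlap nAChRbeta3. The insulator protein gene su(Hw) rose by 0.74, and the checkpoint kinase gene grp by 0.79. The gene r (rudimentary), whose product begins pyrimidine synthesis, rose by 1.38.

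Some genes passed in the averaged contrast because of one UAS cross more than the other. Among all 171 called genes, 65 also passed the threshold between SvbAct and RNAiSvb, where 549 of all genes tested did (6.26%). CG2772 had 17.8, 16.1 and 17.4 CPM in SvbAct, 91.6, 130 and 160 CPM in RNAiSvb, and 217 and 180 CPM in Ctrl. Its SvbAct minus RNAiSvb difference was -2.89 (edgeR adjusted p 0.000215), and RNAiSvb against Ctrl alone did not pass the threshold (edgeR adjusted p 0.22). A hairpin RNA gene, hpRNA:CR32207, whose transcripts fold back on themselves, had 6.12, 8.28 and 4.68 CPM in SvbAct, 0 CPM in each RNAiSvb library, and 13.6 and 9.18 CPM in Ctrl. It was detected in all SvbAct and Ctrl libraries and in no RNAiSvb library, and its exons overlap CR42842.

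CG15544 had 11.9, 12.9 and 16.8 CPM in SvbAct, 5.13, 5.73 and 7.98 CPM in RNAiSvb, and 33.7 and 54.4 CPM in Ctrl. Syt7 had 6.78, 5.78 and 5.70 CPM in SvbAct, 2.54, 2.86 and 2.08 CPM in RNAiSvb, and 14.1 and 17.3 CPM in Ctrl. Both fell in each UAS cross, and RNAiSvb was the lower. N (Notch), the receptor gene of the pathway that steers progenitor fate, had 25.2, 43.9 and 25.3 CPM in SvbAct, 12.8, 11.3 and 9.43 CPM in RNAiSvb, and 5.99 and 6.58 CPM in Ctrl. Its rise of 1.58 (SE 0.26, adjusted p 0.0217 in edgeR) was 2.32 in SvbAct and, at 0.83, did not pass in RNAiSvb (edgeR adjusted p 0.247). N is 1 of the 5 progenitor markers summed above. The other 4 summed to 217, 244 and 174 CPM in SvbAct, 96.5, 90.1 and 103 CPM in RNAiSvb, and 103 and 115 CPM in Ctrl, and their part in the value of N was not tested.

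The called genes lay on all chromosome arms. The share of tested genes that were called was 1.40% on X, 2.06% on 2L, 1.79% on 2R, 1.99% on 3L, 2.43% on 3R and 2.86% on chromosome 4, where 70 genes were tested. On 3L, 3 called genes were higher and 30 lower, and the 18 separating genes there were all lower. On 2R, 15 were higher and 17 lower. Both UAS-Svb transgenes are written opposite tubGal80TS in the labelled genotypes, and where they are inserted was not analysed here.

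Separating genes often lay side by side. Another separating gene was found within 10 kb of 19 of the 101 (18.8%), against 378 of 8570 other tested genes with a position (4.41%). The 19 form 8 groups, of which 6 hold 1 direction of change. These 6 are Jon25Biii with Jon25Bii, CG8665 with nrv3, Ugt49B1 with Ugt49C1, spo with Alp10 and Alp9, Jon99Fii with Jon99Fi and PH4alphaSG2, and fiz with CG14406. The other groups mix directions and hold the alpha-esterase genes, and Mpc1 with CG42613. Syt4 and its neighbour Gld form no group here, because Gld is not counted as a separating gene. Several of these pairs are copies of one family, in which reads can be shared. The window was chosen after values were seen.

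Flanking genes were examined around 4 genes with marked differences, which were chosen by hand and not by rank. Others were left out, such as CG11893, which has the called genes CG11878, CG31436 and CHKov1 within 50 kb. Of these, CG11878 was higher in the UAS crosses and CG31436 and CHKov1 were lower. The rise of CG11878 was 1.82 in SvbAct and, at 0.73, did not pass in RNAiSvb (edgeR adjusted p 0.219). Within 50 kb of CG14406, 1 of 5 other tested genes was called, namely fiz. Around Syt4, 1 of 6 was called, namely Gld, whose start site lies 0.362 kb away on the opposite strand. Around Ugt49B1, 1 of 10 was called (Ugt49C1), and around Alp10 2 of 11 were called (Alp9 and spo). CG44245, which shares exon bases with Ugt49B1, had a log2 fold change of 0.56 and did not pass the threshold (edgeR adjusted p 0.691).

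**Figure D4:**
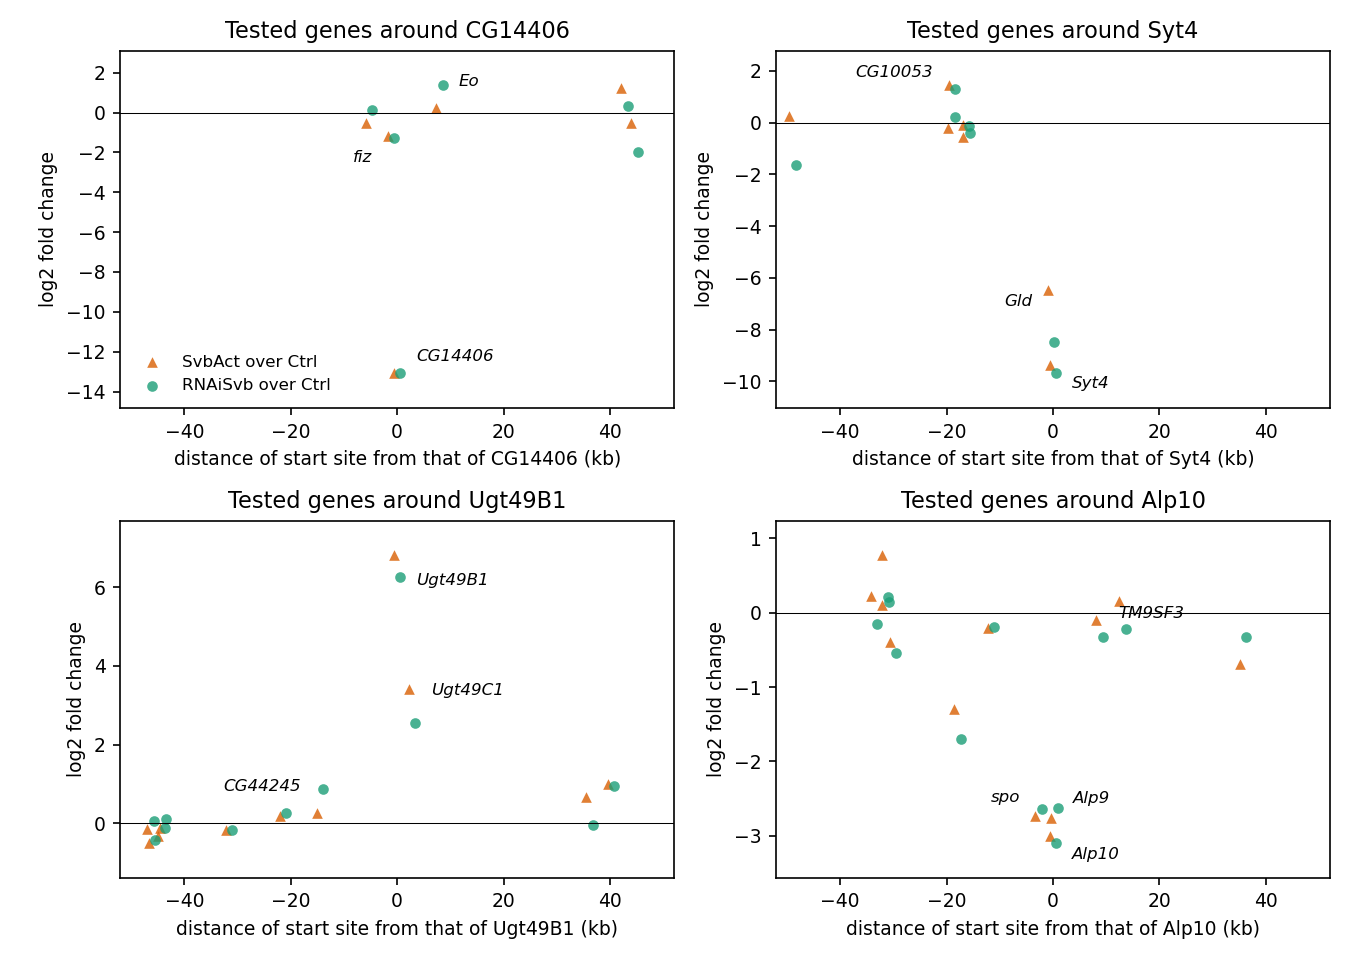
Tested genes within 50 kb of CG14406, Syt4, Ugt49B1 and Alp10, with the distance of each gene's start site from that of the central gene in kb on the horizontal axis and the log2 fold change of SvbAct (triangles, drawn 0.6 kb to the left) and RNAiSvb (circles, drawn 0.6 kb to the right) over Ctrl on the vertical axis. The called neighbours fiz, Gld, Ugt49C1, Alp9 and spo lie next to the central genes.

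Exons of 9 of the 101 separating genes (8.91%) overlap a transposable element copy annotated in BDGP6.54, against 189 of 8570 other tested genes (2.21%). The 9 are CHKov1 with Doc, CG32512 with roo, ZnT77C with springer, Cyp6a14 with 1360, Marf1 and CG7231 with 297, CG8665 and alpha-Est5 with INE-1, and CG42335 with mdg1. Of these 9, 3 rose and 6 fell. BDGP6.54 describes the reference strain, whether these copies are present in the crosses was not tested, and the overlap was looked at after the genes were known. Exon overlap with any annotated feature was found in 38.6% of the separating genes and 42.1% of the others.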

How the data were processed

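Raw counts, deposited by the authors as 1 table, were whole numbers for FlyBase genes. The authors used FastQC 0.11.5, STAR 2.5.2b, HTSeq 0.6.0, edgeR and the build dm6, per the submitters' processing notes. Per the labels' protocols, a NuGEN Ovation SoLo kit was used and single reads of 100 nt were taken. Strand handling, annotation and use of molecular identifiers are not given in the sources used here, so counting intervals cover counting error only. The authors' deposited fold changes were not used.

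Of 9177 genes, filterByExpr left out 402 and 8775 were tested with edgeR 4.0.16 (R 4.3.3, limma 3.58.1). One quasi-likelihood fit with a mean per group and TMM factors used all 8 libraries, with CPM computed on library totals times these factors, 5 residual degrees of freedom and a common biological coefficient of variation of 0.282. The contrast was (SvbAct + RNAiSvb)/2 minus Ctrl, with Benjamini-Hochberg adjustment over all genes tested and a threshold of 0.05. SvbAct, RNAiSvb and their difference were tested in the same fit. Standard errors are Wald values from the quasi-likelihood variance, given only where no group is at 0 counts. The fit was tested on simulated data. Both single contrasts share the Ctrl libraries, so their agreement is not a result.

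Positions (1-based) come from Ensembl 115 for BDGP6.54. Gene IDs matched for 9060 of 9177 genes. Named genes were ovo and w, the 10 greatest rises and falls among separating genes with an average log2 CPM of at least 2, up to 4 called genes that differ between the UAS crosses, and up to 3 called members of each list, besides those said to be chosen after values were seen. The genes, lists and settings were chosen with earlier results of these data known. Per the series text replicates were biological, made on different days, but no day or batch is given for a library, so nothing could be recomputed within batches. Alternatives were other scalings, filters, tests (DESeq2 1.42.0), a replicate block and each library left out. All pairs of libraries within a group differed beyond sampling noise (the lowest chi-square ratio to its degrees of freedom was 62.2).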

Additional observations from a re-analysis of the deposited data

Results flagged for a closer look

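For 13 of the 45 genes named by rule, and for some named besides, the difference SvbAct minus RNAiSvb was itself called in edgeR's quasi-likelihood test. For these genes the averaged contrast joins unequal values of the UAS crosses, and the cause of the difference was not tested. SvbAct was higher than RNAiSvb for ovo by 4.89, lncRNA:CR40469 by 2.75, hpRNA:CR33940 by 1.93, N by 1.49, Syt7 by 1.28, CG15544 by 1.14 and asRNA:CR45192 by 0.90 on the log2 scale. For hpRNA:CR32207 the fitted difference was 9.91, a value that depends on the prior count because RNAiSvb was at 0 counts. SvbAct was lower than RNAiSvb for asRNA:CR45600 with a difference of -4.18, CG2772 with -2.89, Ugt35C1 with -1.40, Mal-A3 with -1.38 and Ugt35E1 with -1.27. Among those named besides, SvbAct was higher for Jon25Bi by 4.21, CG11878 by 1.09, Cirl by 1.03 and CG33090 by 0.95. It was lower for Jon99Ci with -2.36, Ugt37A3 with -1.03, CG31436 with -0.97 and Sod3 with -0.87. Of all these, asRNA:CR45192, CG33090, CG31436 and Sod3 are separating genes, since their differences are under 1. Exons of asRNA:CR45600, asRNA:CR45192, hpRNA:CR32207 and hpRNA:CR33940 overlap other annotated features. The 4 other progenitor markers in the table also sum to more in SvbAct than in RNAiSvb, and their part in the value of N was not tested.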

How the results depend on the processing

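In what follows the first count is of genes called in the averaged contrast (171 in the edgeR quasi-likelihood test) and the second of separating genes (101). The DESeq2 Wald test gave 411 and 241, and edgeR's likelihood ratio test 389 and 222. The 6 UAS libraries as 1 group gave 30 and 25, and an adjusted p under 0.01 gave 51 and 28. Requiring both single contrasts to pass with the same sign left 49. For the second count, a difference under 0.5 gave 65 and a 95% interval of the difference within -1 to 1 gave 60. Leaving out 1 library gave 19 to 163 and 10 to 99. The low ends came without Ctrl replicate 2, followed by 43 and 25 without Ctrl replicate 1, 104 and 63 without SvbAct replicate 1, and 105 and 61 without RNAiSvb replicate 1. For these counts the cause was not tested. Fits that leave out a library also hold fewer libraries, and some settings apply stricter rules. With DESeq2 size factors, library totals, a minimum of 10 counts per library, no gene filter, a fold change limit of 1 and no condition on overlap, the counts stayed within 1.5 times. The replicate number as a block gave 141 and 76. Deviations of same-numbered libraries correlated at -0.105 to 0.157. With so few libraries per group these values cannot decide whether the numbers pair the libraries. Of the 45 named genes none changed sign in any setting, but 22 and 31 did not pass the threshold without Ctrl replicate 1 and 2, 29 with the UAS libraries as 1 group and 9 under the block. With 2 Ctrl libraries, small differences in genes of low counts were not detectable at this depth.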
